A study of Homo sapiens with 2 samples.

Results

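The heat shock proteins and chaperones on the arrays were taken by gene name, as every probe named for the HSP70, HSP90, small heat shock protein, DNAJA, DNAJB, DNAJC, CCT or BAG families, for HSPD1, HSPE1 or HSPH1, or for the co-chaperones STIP1 and AHSA1. This gave 79 gene names of 30982 in all, read by 131 of 41000 probes at 140 of 43376 spots. The name pattern also took HSPBAP1 and HSPBP1, which bind heat shock proteins, and HSP90AB3P, an HSP90 pseudogene.

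RNA of Y79 cells, an established human retinoblastoma line that grows in suspension, was labeled in a single color and hybridized to 2 Agilent whole genome arrays on 1 slide. The control array held RNA of cells labeled as untreated, and the other held RNA of cells collected 48 h after treatment with siRNA against Ep-CAM, a cell surface adhesion molecule. According to the study's methods both cultures had earlier been exposed to azacytidine (AZC), a demethylating agent, to make them express Ep-CAM, which the labels do not mention. The labels and the text of the study name untreated cells as the control. A figure legend of the study names both untreated cells and a nonsilencing siRNA as the reference, and the arrays cannot settle which it was. If the control was untreated, as taken here, an effect of transfection cannot be told apart from an effect of losing Ep-CAM. The study's text speaks of biologic replicates, while 1 array per condition is given here. With 1 array per condition there is no replicate check and no test, and each ratio compares these 2 arrays.

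The Ep-CAM probe, listed as TACSTD1, had signals of 15.6 and 12.0 and was well above background on neither array, so the arrays do not check the knockdown. Spots had a median signal of 48.9 without and 50.0 with siRNA, and 70.4% and 68.0% of spots were well above background. Spots of the same probe differed little, with a median technical SD of 0.14 in log2 ratio over 193 probes printed at 5 or more spots. GAPDH had a log2 ratio of -0.03. Of 6 retinoblastoma and photoreceptor markers, CRX, OTX2 and MYCN were well above background, and NRL, NEUROD1 and RCV1 were not. Markers of other cell types, such as COL1A1, CD3E and KRT14, were also well above background for 10 of 12 genes, so signal above background on these arrays does not by itself identify a cell type. In RNA of whole cultures, fewer expressing cells and less RNA per cell cannot be told apart.

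Chaperones help other proteins to fold, keep unfolded proteins from clumping and hand damaged ones on for degradation. HSP70 binds short exposed stretches of a client in a cycle driven by ATP, in which J-domain proteins (DNAJA, DNAJB and DNAJC) deliver clients and speed ATP cleavage, and BAG proteins, HSPBP1 and the HSP110 protein HSPH1 speed nucleotide release. HSP90 completes the folding of kinases and hormone receptors, the ring-shaped CCT complex folds actin and tubulin, HSPD1 and HSPE1 form the folding chamber of mitochondria, and small heat shock proteins hold unfolded proteins without ATP. On stress the transcription factor HSF1 binds heat shock elements, which are inverted repeats of GAA, and raises the inducible members, of which HSPA1A and HSPA1B are the classical example.

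The results turn on HSPA1A, so the sequences behind it are shown first. HSPA1A and HSPA1B are neighboring, intronless copies of the inducible HSP70 gene. Both probes that were higher after siRNA treatment list transcripts of both genes, so their signal cannot be assigned to either copy, and no probe carries the name HSPA1B. These are the 60-base probe sequences as deposited, placed by the array design on hg17 at chr6:31892924-31892983 and chr6:31892373-31892432, both on the plus strand.
HSPA1A probe, 31892924: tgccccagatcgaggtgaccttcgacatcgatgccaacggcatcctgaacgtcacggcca
HSPA1A probe, 31892373: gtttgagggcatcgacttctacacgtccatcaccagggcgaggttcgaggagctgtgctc

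The 250 bases before the start of HSPA1A, of HSPA1B and of 2 other heat-inducible members, DNAJA1 and HSP90AA1, are given from RefSeq (GRCh38.p14), because these genes had different ratios on the arrays and all carry letters of the heat shock element. Capitals mark GAANNTTC or TTCNNGAA, which are a pair of inverted GAA units spaced by 2 bases and which read the same on the other strand, with overlapping matches joined. The windows lie at chr6:31815293-31815542 (plus strand), chr6:31827488-31827737 (plus strand), chr9:33025023-33025272 (plus strand) and chr14:102087045-102087294 (minus strand).
HSPA1A: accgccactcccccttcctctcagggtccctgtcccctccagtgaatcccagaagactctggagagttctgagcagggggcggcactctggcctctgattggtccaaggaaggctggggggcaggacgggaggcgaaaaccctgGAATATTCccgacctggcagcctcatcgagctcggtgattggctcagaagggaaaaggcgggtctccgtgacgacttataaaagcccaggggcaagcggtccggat
HSPA1B: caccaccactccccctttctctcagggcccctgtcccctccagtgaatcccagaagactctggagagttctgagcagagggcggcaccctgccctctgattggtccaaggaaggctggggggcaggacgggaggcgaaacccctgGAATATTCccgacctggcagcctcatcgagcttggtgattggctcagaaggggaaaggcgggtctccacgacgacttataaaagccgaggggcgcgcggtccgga
DNAJA1: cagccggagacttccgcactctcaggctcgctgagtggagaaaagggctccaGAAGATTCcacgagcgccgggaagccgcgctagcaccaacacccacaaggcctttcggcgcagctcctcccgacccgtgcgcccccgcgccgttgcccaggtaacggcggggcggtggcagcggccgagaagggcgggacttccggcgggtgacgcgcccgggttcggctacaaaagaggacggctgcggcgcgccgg
HSP90AA1: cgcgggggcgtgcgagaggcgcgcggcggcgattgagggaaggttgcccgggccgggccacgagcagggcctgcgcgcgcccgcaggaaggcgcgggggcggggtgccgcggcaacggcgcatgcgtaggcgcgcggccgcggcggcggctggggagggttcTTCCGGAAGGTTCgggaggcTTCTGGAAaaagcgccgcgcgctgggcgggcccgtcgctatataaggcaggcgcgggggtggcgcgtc
The HSPA1A and HSPA1B windows, each taken to 50 bases past the start, were identical at 277 of 299 aligned bases, and each held the same match, 98 and 97 bases before the start. The upstream window of HSP90AA1 held 3 matches and that of DNAJA1 held 1.

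A log2 ratio is the siRNA array over the untreated array, after each array was divided by its median spot signal. Probes with a log2 ratio of at least 1, a 2-fold difference, were called higher, and those at -1 or below were called lower. A probe well above background on both arrays is named measured, and a probe dim on 1 array gives only a bound. For the bound, a dim value below the lowest signal well above background anywhere on its array was raised to that signal. Some dim spots were brighter than that signal, so a bound is not a strict minimum change. Of the 131 probes, 83 were measured, 9 were dim only on the siRNA array, 1 was dim only on the untreated array, and 38 (29.0%) were dim on both and yielded no value.

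Among the 93 that gave a value, 2 were called higher, where 1.27% of all probes were, and 4 were called lower, where 0.927% of all probes were. Both higher probes were for HSPA1A. The 4 lower probes were for the J-domain proteins DNAJA2 and DNAJA3, the HSP70 of the endoplasmic reticulum HSPA5, and the HSP90 co-chaperone STIP1. HSPA5 and STIP1 were called by a bound only. The calls divided by place on the array. All 4 lower probes lay in a corner of the slide area, made up of the last 33.5% of its rows and of columns 43 to 85. This corner had been chosen with the places of changed probes known, and in it the SD of all log2 ratios was 0.51, against 0.29 elsewhere. There 2.17% of all probes were called lower and 5.34% higher. Outside it 2 of 76 members were called higher, where 0.435% of all probes were, and 0 were called lower, where 0.673% were.

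**Figure D1:**
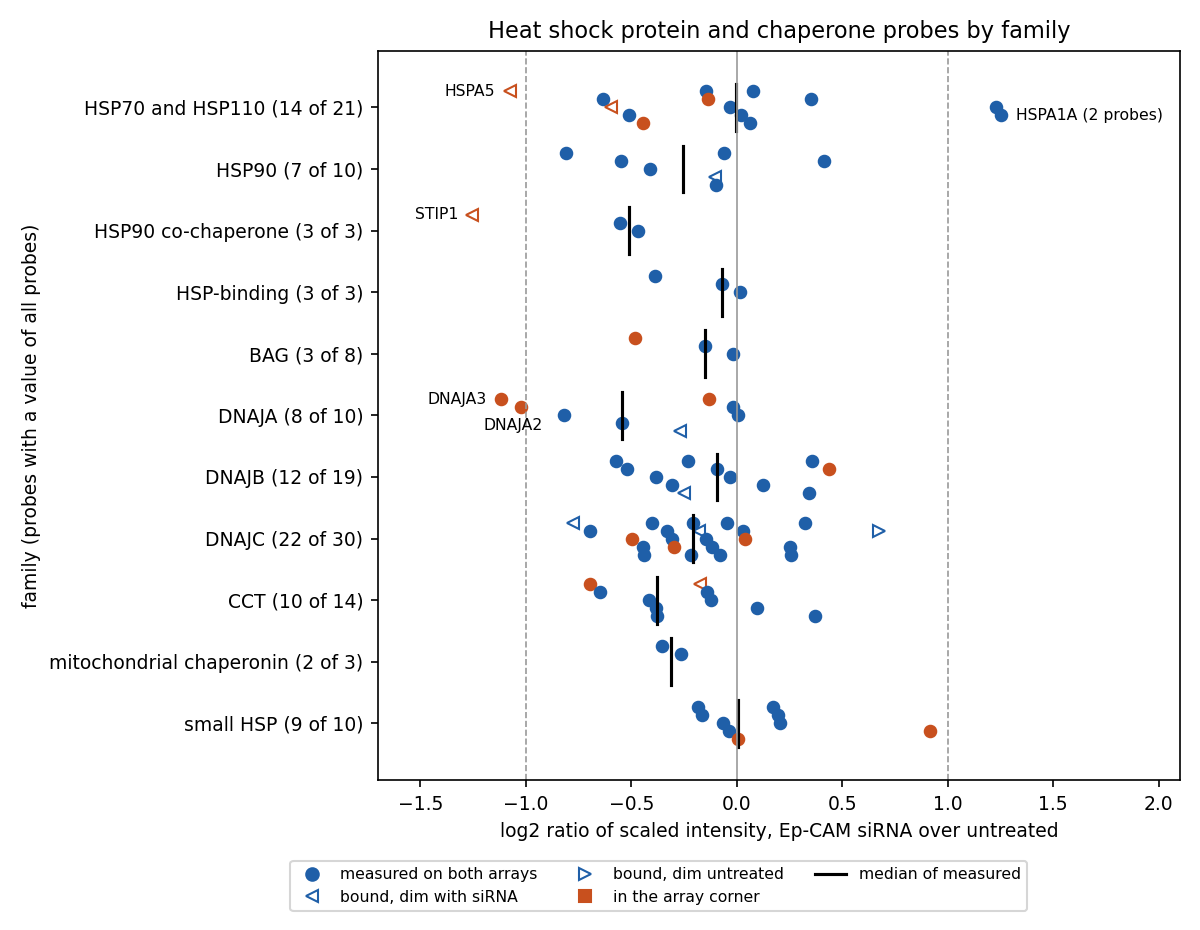
Log2 ratio (siRNA over untreated, x axis) of the 93 heat shock protein and chaperone probes with a value, by family (y axis, with the probes that gave a value of all probes). Filled points were measured on both arrays, open triangles are bounds for probes not well above background (dim) on 1 array, orange marks lie in the array corner, black bars are family medians of measured probes and dashed lines mark -1 and 1; the HSPA1A probes at 1.23 and 1.25 stand alone on the right, and the 4 probes past -1 are all orange.

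HSPA1A was the HSP70 member with the highest ratios. Its probe at 31892924 read 384 in untreated and 922 in siRNA-treated cells (log2 ratio 1.23, 2.35-fold). Its probe at 31892373 read 359 and 876 (log2 ratio 1.25, 2.39-fold). These probes are at different sites of the transcript and at distant places on the array, and their ratios differed by less than the technical SD. Among the 53 measured spots around the first, within 6 rows and 3 columns, the median log2 ratio was 0.04, with 0 called higher and 1 lower. Among the 58 around the other it was -0.04, with none called in either direction. The HSPA1A transcript was also read by another probe, at chr6:31893470-31893529, which lists HSPA1A and no HSPA1B transcript. This probe read 84.6 untreated and 90.5 with siRNA (log2 ratio 0.06), so the probes under the name HSPA1A did not move together. Under 10 other processings the shared probes had log2 ratios from 0.97 to 1.33 and from 1.07 to 1.34. The first stayed past the threshold in 9 of the 10, falling short with the authors' series values, and the other in 10 of 10. The mean over all 3 HSPA1A probes was 0.85, short of the threshold.

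The other HSP70 proteins did not share these ratios. HSPA8, the constitutive HSP70 of the cytosol, read 12872 in untreated and 11924 in siRNA-treated cells (log2 ratio -0.14), and the ratio turned to 0.20 with quantile normalization. This was its only measured probe, and its other probes were dim on both arrays. HSPA6, a strictly inducible HSP70, read 105 untreated and 138 with siRNA (log2 ratio 0.35). The 61 measured spots around the HSPA6 probe had a median of 0.29. HSPA2, known from the testis, had signals of 36.7 and 24.2, and its log2 ratio of -0.64 was the lowest in the family among measured probes. HSPA4, an HSP110-type protein, read 7085 untreated and 5097 with siRNA (log2 ratio -0.51), while HSPH1 had 16.8 and 18.2 and a log2 ratio of 0.08. The other HSPA4 probe was dim on both arrays. HSPA14, a ribosome-associated HSP70, had a log2 ratio of -0.44 in the corner. HSPA12B had 0.02, and HSPA12A had -0.14 at its measured probe. The other HSPA12A probe was dim on the siRNA array and 1.51-fold lower, with its dim value kept as read. Both HSPA12A probes lay in the corner. HSPA1L, HSPA4L and the mitochondrial HSPA9B were dim on both arrays. Over the 12 measured probes of HSP70 and HSP110 proteins the median log2 ratio was -0.01, with 6 below 0 and 6 above, beside -0.03 for all 26975 measured probes, and the sign of this median changed in 8 of 11 alternatives.

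HSPA5, also known as BiP, is the HSP70 of the endoplasmic reticulum and a marker of unfolded protein there. Its probe in the corner had a signal of 36.0 on the untreated array and 7.75, not well above background, on the siRNA array. By its bound this probe was 2.11-fold lower. Its other probe, outside the corner, read 52.6 untreated and 52.7 with siRNA (log2 ratio -0.03). The probes thus gave different readings of the same gene, and the part of the corner in this was not tested. Of the other luminal members, DNAJB9 (-0.31), DNAJB11 (-0.23) and the DNAJC10 probes (-0.33 and -0.22) had log2 ratios below 0 and DNAJC1 had 0.33. DNAJC3 was 1.71-fold lower by its bound. Its signal was 29.2 on the untreated array and 17.4, not well above background, on the siRNA array. The 6 measured probes of the luminal list had a median log2 ratio of -0.22.

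The J-domain proteins were the largest group, with 59 probes for 35 genes. Values were obtained at 42 probes, of which 0 were called higher and 2 lower, beside 1.27% and 0.927% of all probes. Both lower probes lay in the corner, where 2.17% of all probes were called lower. Among the 37 measured probes 27 (73.0%) had a log2 ratio below 0, beside 55.0% of all measured probes, and the median was -0.21. This median was -0.14 after the dependence on signal was subtracted, and -0.06 with normexp background correction. The DNAJA proteins, the closest relatives of bacterial DnaJ, had the lowest median of the 3 classes, -0.54 over 7 measured probes, against -0.09 for 11 DNAJB and -0.21 for 19 DNAJC probes. The DNAJA median was -0.27 without the corner, in which 4 of the 10 DNAJA probes lay, and the DNAJB median was 0.04 with dim probes included.

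DNAJA2, a cytosolic partner of HSP70, read 1634 in untreated and 824 in siRNA-treated cells (log2 ratio -1.02). Among the 49 measured spots around it the median was 0.39 with 9 called higher, so the probe moved against its surroundings. Minus that median its log2 ratio was -1.41, and it was -0.55 with normexp background correction. DNAJA3, a J-domain protein of mitochondria that the study names, read 94.7 untreated and 44.7 with siRNA (log2 ratio -1.12). Around it the 60 measured spots had a median of -0.22, with 3 called higher and 5 lower. It stayed past the threshold in 5 of 9 alternatives and DNAJA2 in 3 of 9. Each gene was read by 1 probe only, and both probes lay in the corner.

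DNAJA1, a heat-inducible partner of HSP70, was read outside the corner. Its probes read 520 and 317 in untreated and 301 and 222 in siRNA-treated cells, with log2 ratios of -0.82 and -0.54. Neither passed the threshold, and both were below 0. The DNAJA4 probes had log2 ratios of 0.01 and -0.02 and a bound of 1.20-fold lower, and DNAJA5, now named DNAJC21, had -0.13.

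Among the DNAJB proteins the highest log2 ratio was that of DNAJB2, 0.44 in the corner, from signals of 89.4 and 124, and the lowest that of DNAJB4, -0.57, from 394 and 272. DNAJB1, the main J-domain partner of inducible HSP70, was dim on both arrays. Its level therefore cannot be set beside that of HSPA1A. Among the DNAJC proteins the measured log2 ratios ran from -0.70 for DNAJC15 (signals of 2497 and 1579), a protein of the mitochondrial inner membrane, to 0.33 for DNAJC1 (23.3 and 29.9). DNAJC14 was 1.60-fold higher at a probe dim on the untreated array (15.1 and 24.7, the dim value kept as read), while its other probe had -0.08. DNAJC4 and DNAJC11 each had probes on either side of 0, from -0.44 to 0.26 and from -0.44 to 0.25.

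The nucleotide exchange factors held no call, a count near the shares of all probes (1.27% higher and 0.927% lower). BAG3, which is heat-inducible and links HSP70 to small heat shock proteins and autophagy, had signals of 46.1 and 33.8 in the corner and a log2 ratio of -0.48. BAG5 had -0.15 and BAG1 -0.02. BAG2 and BAG4 were dim on both arrays, as were 5 of the 8 BAG probes. The HSPBP1 probes had 0.02 and -0.39, and HSPBAP1 had -0.07.

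In the HSP90 family the inducible and the constitutive cytosolic protein had different ratios. HSP90AA1, the inducible form, read 9630 in untreated and 5633 in siRNA-treated cells at its brightest probe (log2 ratio -0.81). A dimmer probe had 49.4 and 34.6, a log2 ratio of -0.55. The HSP90AA1 probe that was printed at 10 spots, of which 9 were kept, had mean signals of 18.4 and 12.3 and was dim on the siRNA array. Its bound was 1.07-fold lower, and the SD of its spots was 0.22. A further HSP90AA1 probe and the other probes of HSP90AB1 were dim on both arrays. HSP90AB1, the constitutive form, read 6577 untreated and 6460 with siRNA (log2 ratio -0.06), and HSP90B1, the HSP90 of the endoplasmic reticulum, had -0.10 and -0.41. The first of these HSP90B1 values and that of HSP90AB1 turned to 0.19 and 0.29 with quantile normalization, under which the brightest HSP90AA1 probe had -0.45. The highest ratio of the family was that of HSP90AB3P, 0.41. The family median was -0.26 over 6 measured probes, and it turned to 0.05 with quantile normalization and 0.04 after the dependence on signal was subtracted.

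STIP1, also named HOP, carries clients from HSP70 to HSP90. Its probe in the corner had a signal of 40.7 on the untreated array and 15.1, not well above background, on the siRNA array. By its bound this probe was 2.38-fold lower. The 31 measured spots around it had a median log2 ratio of 0.43. Its other probe, outside the corner, read 678 untreated and 502 with siRNA (log2 ratio -0.47). Both probes were below 0 and only the probe in the corner passed the threshold. AHSA1, which stimulates the ATPase of HSP90, read 9643 untreated and 6721 with siRNA (log2 ratio -0.55). The 46 measured spots around the AHSA1 probe had a median of -0.29, as did all measured probes of like signal.

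The chaperonins had no call at 10 CCT and 2 mitochondrial probes, a count near the shares of all probes (1.27% higher and 0.927% lower). TCP1 and the CCT subunits gave 10 values, of which 9 were measured, and their log2 ratios ran from -0.70 for CCT8, in the corner, to 0.37 for CCT2. CCT8 had signals of 332 and 210, CCT3 had 6764 and 4425 with a log2 ratio of -0.65, and CCT2 had 48.7 and 64.6. The TCP1 probes had -0.38 and -0.41, and the array design places the second of these on chromosome 7 and the first on chromosome 6. CCT4 had -0.12, CCT7 -0.14, and CCT6A -0.38 and 0.10. CCT5 was 1.13-fold lower at a probe dim on the siRNA array, with its dim value kept as read. CCT6B, a form known from the testis, was dim on both arrays. The subunits of this complex thus did not have a common ratio, with 7 of 9 measured probes below 0. Their median of -0.38 stayed below 0 in 11 of 11 alternatives, from -0.38 to -0.10. It was -0.14 with quantile normalization and -0.13 after the dependence on signal was subtracted. HSPD1 read 154 untreated and 131 with siRNA (log2 ratio -0.27), and its partner HSPE1 had 27746 and 22223 and a log2 ratio of -0.35, or -0.06 after that subtraction. With DNAJA3, DNAJC15 and DNAJC19 (0.03) these made 5 measured probes of mitochondrial members, with a median of -0.35.

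The small heat shock proteins held no call at 9 probes, a count near the shares of all probes (1.27% higher and 0.927% lower). HSPB1, the inducible HSP27, was read by 3 probes at 229, 207 and 181 untreated and at 209, 203 and 181 with siRNA, and the log2 ratios were -0.17, -0.06 and -0.03. These probes differed from each other by at most 0.13, less than the technical SD. HSPB2 had 0.20, HSPB3 0.01, HSPB6 -0.19 and HSPB8 0.17, and HSPB7 was dim on both arrays. HSPB9, known from the testis, read 79.2 untreated and 153 with siRNA (log2 ratio 0.92) at a probe in the corner, and 180 and 211 with a log2 ratio of 0.20 at a probe outside it. The family median was 0.01 over 9 measured probes. Over the alternatives it ran from -0.02 without the corner to 0.18 minus the local median, and it was 0.10 with the authors' series values.

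The heat-inducible members were listed together, from textbook knowledge of the HSF1 response. The list also held HSPA8 and HSP90AB1, described above as constitutive. Both were below 0 here and above 0 with quantile normalization. Of 16 genes with 32 probes, 13 gave a value, at 21 probes. The measured probes numbered 19, and 14 of them were below 0 (73.7%), beside 69.9% of all measured members and 55.0% of all measured probes. Their median log2 ratio was -0.17, and -0.06 after the dependence on signal was subtracted. The HSPA1A probes, all above 0, were then left out because of their values here, so the share below 0 had to rise, to 14 of 16. The median of these 16 was -0.31, and -0.20 after the dependence on signal was subtracted. The ratio of the HSPA1A probes was therefore not shared by the list, and HSPA6 (0.35) and HSPH1 (0.08) were the other genes above 0. The spots around the HSPA6 probe had a median of 0.29, and HSPH1 had signals of only 16.8 and 18.2.

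**Figure D2:**
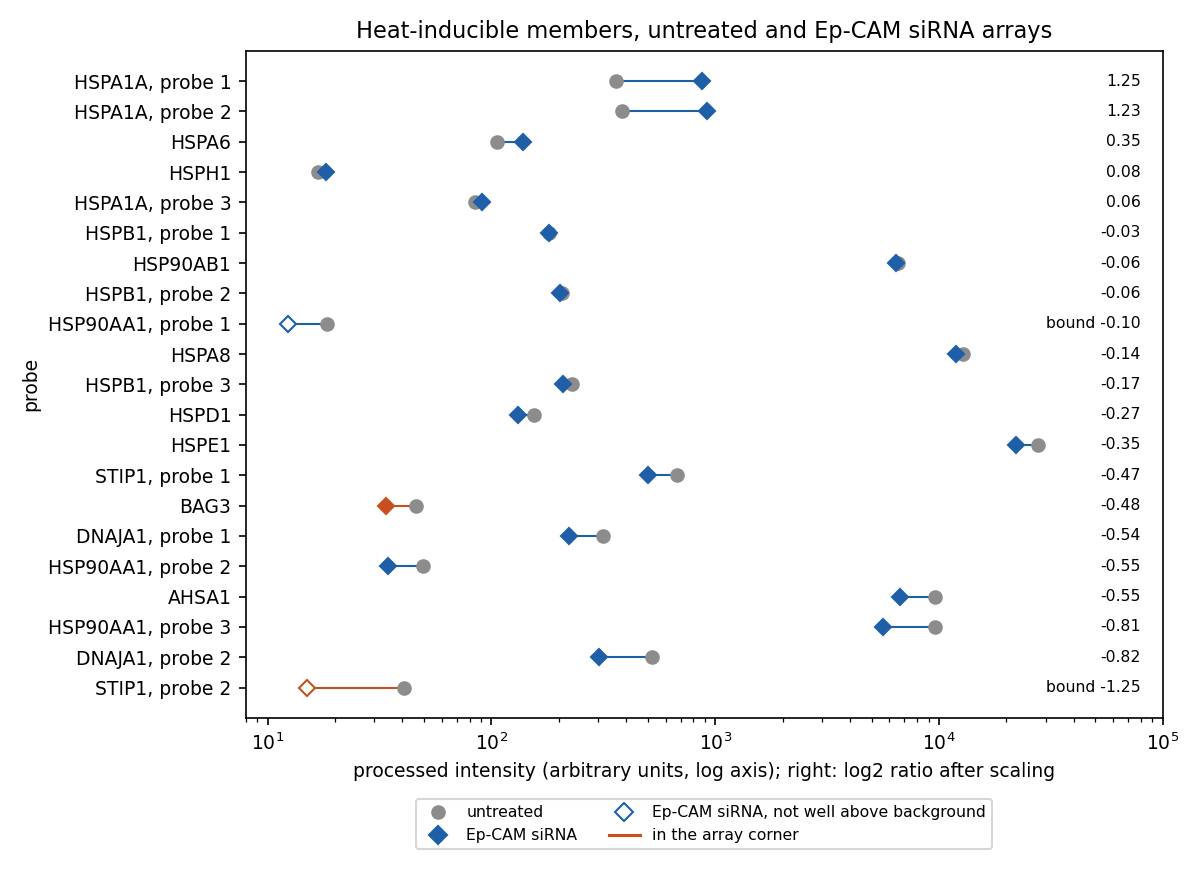
Processed intensity (x axis, arbitrary units, log axis) of the 21 heat-inducible probes with a value on the untreated array (gray circles) and the siRNA array (diamonds), in order of their log2 ratio, which is printed at the right. Open diamonds were not well above background and orange marks lie in the array corner; intensities can be compared within a line and not between lines. The upper pair of HSPA1A probes moved to the right by 1.25 and 1.23, and the lines from HSPB1, at -0.03, downward moved to the left.

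The letters of the heat shock element were counted in RefSeq promoter windows, from 250 bases before to 50 after each start. GAANNTTC or TTCNNGAA was found for 27 of 71 member genes with a window (38.0%), and for 16.2% of all 27305 genes. Among the members of the heat-inducible list, with HSPA1B added, 13 of 17 genes held it (76.5%), and among the other members 15 of 55 did (27.3%). The list was drawn from knowledge of the HSF1 response, which acts through this element, so its higher share is no independent result. A run of 3 alternating GAA and TTC units was found for 7 member genes (9.86%) and for 0.608% of all genes. These 7 genes, DNAJA1, DNAJB6, HSP90AA1, HSP90AB1, HSPA6, HSPA8 and HSPD1, had 10 measured probes with log2 ratios from -0.82 to 0.35. Of these probes 0 passed the threshold, a count near the shares of all probes (1.27% higher and 0.927% lower). HSPA1A, whose shared probes did pass the threshold, held a single match and no such run in this window. A match is a description of the letters and says nothing of binding.

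Ratios also moved with signal. Over all measured probes with a mean signal of 1000 or more the median log2 ratio was -0.24, and 78.2% of them were below 0. Of the members, 17 probes were this bright, among them TCP1, HSPE1, HSP90B1 and HSPA8, and 17 of 17 were below 0, with a median of -0.41. With quantile normalization 14 of the 17 were below 0 and their median was -0.13, with HSP90AB1, HSP90B1 and HSPA8 above 0. The 36 members from 100 to 1000 had a median of -0.12, against -0.02 for all such probes, and the 30 members under 100 had -0.03, against -0.01. Over the 83 measured members together the median was -0.14 with 58 below 0, beside -0.03 and 55.0% for all measured probes, and outside the corner it was -0.13 beside -0.02. After subtraction of the median of all probes of like signal, a step added after the data were seen, the median of the members was -0.09. The part of signal in the lower ratios of the bright members was not tested further.

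**Figure D3:**
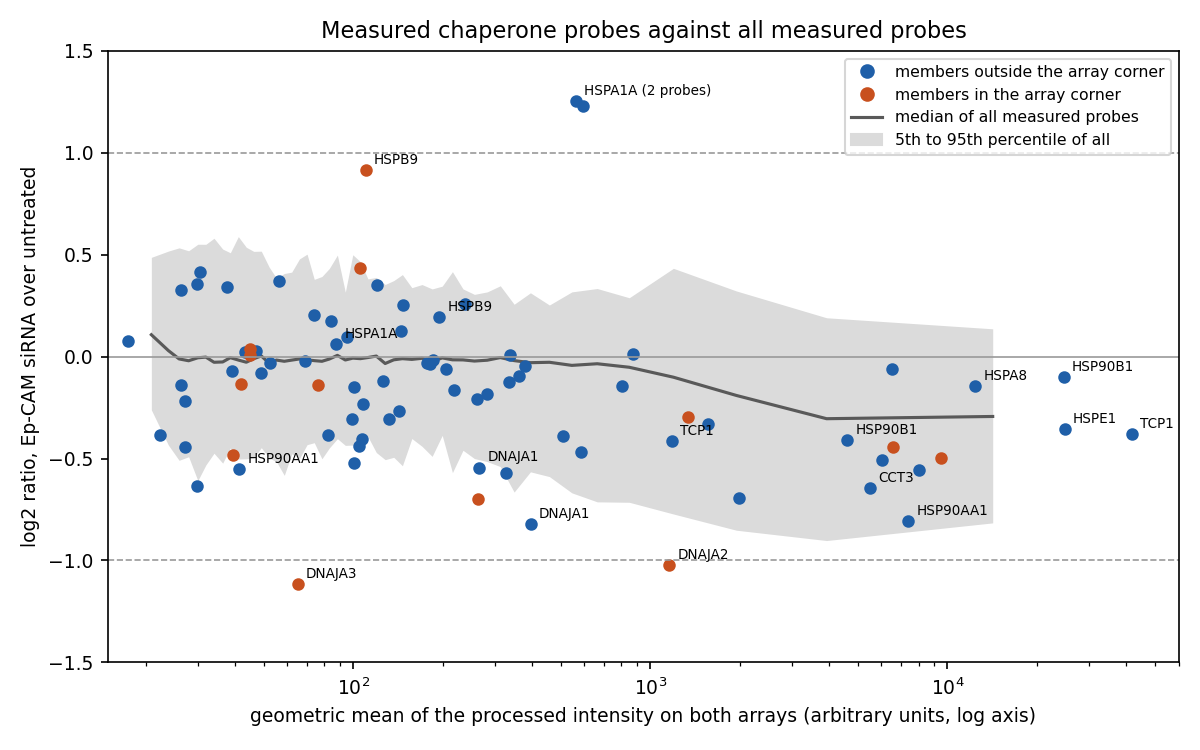
Log2 ratio (y axis) of the 83 measured chaperone probes against the geometric mean of their processed intensity on both arrays (x axis, arbitrary units, log axis). The dark line is the median and the gray band the 5th to 95th percentile of all measured probes in 50 bins of signal; 69 members lie in the band, held level beyond its ends, 11 below it and 3 above it, and both the dark line and the members run below 0 at the bright end.

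In the corner of the array 17 member probes gave a value. Of these 0 were called higher, where 5.34% of all corner probes were, and 4 lower, where 2.17% were. For HSPA5, STIP1 and HSPB9 a probe elsewhere could be set beside the probe in the corner. The probe outside the corner had a log2 ratio of -0.03 where the corner gave a bound of 2.11-fold lower for HSPA5. For STIP1 it had -0.47 where the corner gave a bound of 2.38-fold lower. For HSPB9 it had 0.20 where the corner gave 0.92. In each of these 3 genes the probe in the corner was the farther from 0. For DNAJC8 the corner gave -0.30 and the probe elsewhere was 1.13-fold lower by its bound. For DNAJA2 and DNAJA3 no second probe was at hand. Over the 15 genes with several measured probes the range between probes had a median of 0.40 and was over 0.5 for 5 genes, HSPA1A, HSPB9, DNAJC4, DNAJC11 and DNAJB6. All measured probes were below 0 for 7 genes and above 0 for 2. A further 50 genes were read by 1 measured probe, so that their ratios have no second reading.

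**Figure D4:**
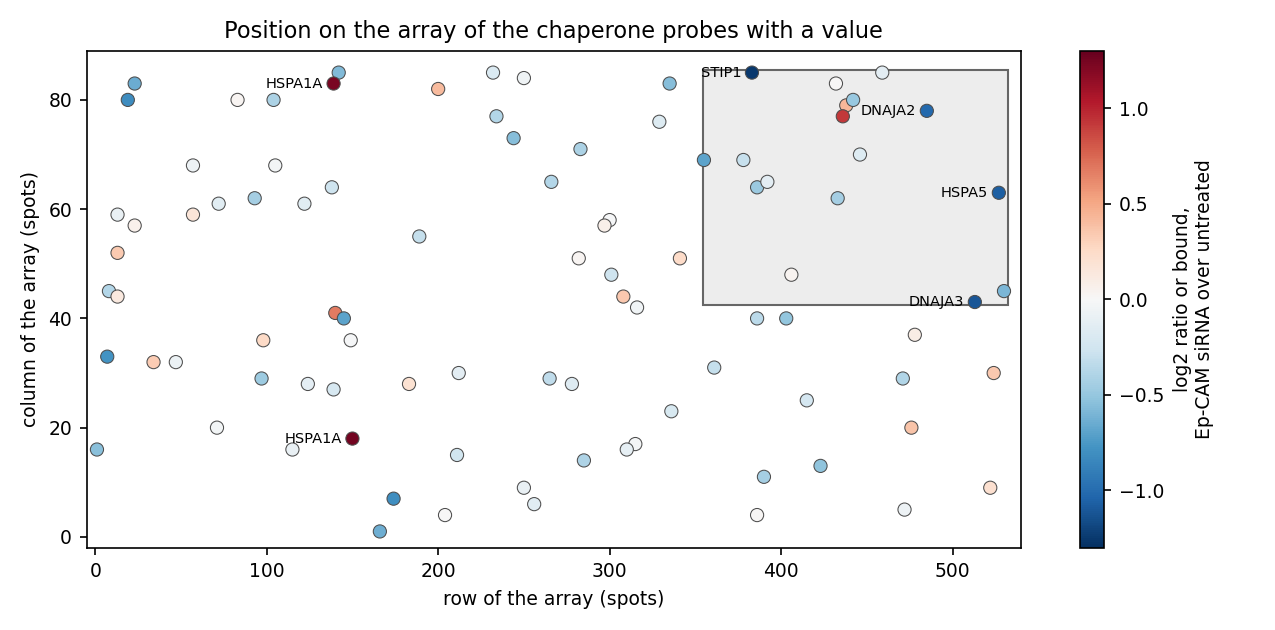
Row (x axis) and column (y axis) of the 93 chaperone probes with a value on the array, in spots, colored by log2 ratio or bound (red higher, blue lower on the siRNA array). The shaded rectangle is the array corner, the last 33.5% of the rows at columns 43 to 85; it holds the 4 probes called lower, and the HSPA1A probes called higher lie outside it.

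Genes that work with the chaperones but are not named like them were listed from textbook knowledge, and 35 of them were on the arrays with 64 probes. On at least 1 array 49 probes were well above background, of which 1 was called higher and 0 lower, a count near the shares of all probes (1.27% and 0.927%). The 42 measured probes had a median log2 ratio of -0.15, which was -0.03 after the dependence on signal was subtracted. The probe called higher was that of STCH, an HSP70-like protein now named HSPA13. Its probe in the corner, where 5.34% of all probes were called higher, had signals of 7.31, not well above background, and 33.8. The bound of its log2 ratio was 1.14. The other STCH probe, outside the corner, had a bound of -0.32 in the opposite direction. HSF1, the factor that switches on the heat shock genes, was dim on both arrays, as was TRAP1, the HSP90 of mitochondria, while HSF2 had a log2 ratio of -0.09. CDC37, which brings kinases to HSP90, read 67.0 untreated and 44.9 with siRNA (log2 ratio -0.61).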

How the data were processed

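Spot intensities were deposited for 2 one-color arrays, made by the authors with Agilent Feature Extraction (version 9.5.3.1 in the file headers, another in the series text). The processed intensity used here is background-subtracted and detrended within the array, and is not scaled between arrays. The authors' series values, with medians of 120 and 123, equaled the raw median brightness of each spot for 100% of 40736 probes printed once, and served as an alternative.

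Control and outlier spots were left out (1 outlier among the member spots). Signals were divided by the array median, floored at 0.01 and log2-transformed, and repeated spots were averaged. Probes with at least 50% of their spots marked by the scanner software as clearly brighter than background are those named well above background. For a probe dim on 1 array, the dim value was raised to the lowest signal well above background (14.9 untreated, 17.5 siRNA) and the ratio is a bound. A dim value already above that signal was kept, as for HSPA12A at 21.7 on the siRNA array. That signal is thus not the limit for every spot, and a bound can overstate the smallest possible change. No member was saturated. With 1 array per condition the number of arrays limits the precision, and p-values were not computed. Tools were R 4.3.3 with limma 3.58.1 and python 3.11.15 with numpy 2.4.6, pandas 2.3.3 and matplotlib 3.10.9. The script for the calls was tested on simulated data, which carried no spatial noise.

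Members, lists, the array corner and the rule for named genes were chosen with earlier results of these data known. Named were genes past the threshold with all their probes, the highest and lowest measured probe of each family, the listed heat-inducible, luminal, mitochondrial and CCT members, DNAJA3, members printed at several spots, and a few partners. All 79 gene names matched a current RefSeq symbol, and 71 had a promoter window. Alternatives were other scalings (75th percentile, bright probes, quantile, none), normexp with an offset of 50 followed by quantile normalization, the series values, other filters, the local median within 6 rows and 3 columns, no corner, the mean over probes of a gene, and the series' thresholds of 1.5 and 0.55. Chosen later, with the data in view, were the median of probes of like signal in 50 bins, and normexp fitted without 1 spot dimmer than its local background.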

Additional observations from a re-analysis of the deposited data

How the results depend on the processing

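No paired analysis was possible because each condition had 1 array. The number of chaperone probes called higher was 2, of 372 over all probes, with 1 (of 89) under the authors' series values, 4 (of 1180) at the series' thresholds and 3 (of 1049) with no filter on dim probes. The number called lower was 4, of 272 over all probes. It was 0 with normexp background correction (of 37, or 46 without the spot dimmer than its background), 0 with the series values (of 80), 0 without the array corner (of 155), 2 with probes measured on both arrays only (of 216), and 7 with no filter on dim probes (of 1016), so the calls over all probes moved as well. The 4 lower probes had log2 ratios from -1.41 to -0.55 (DNAJA2), -1.11 to -0.34 (DNAJA3), -1.18 to -0.20 (HSPA5) and -1.68 to -0.23 (STIP1) over 9 alternatives each. The median log2 ratio of the measured members stayed below 0 in every alternative run, from -0.14 with the mean over the probes of a gene to -0.05 with normexp. The normexp alternative changed the background correction and added quantile normalization, and the cause of the lost calls was not tested. The 38 probes dim on both arrays, among them those of DNAJB1, cannot show a change here.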

Other observations

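HSPA1A was the only member gene with a probe past the threshold outside the array corner, and its 3 probes spanned 1.19 on the log2 scale, the widest range among the 15 member genes with several measured probes. The probes that listed HSPA1B transcripts as well had 1.23 and 1.25, and the probe that listed HSPA1A alone had 0.06. TCP1 (-0.41 and -0.38), DNAJA4 (-0.02 and 0.01) and HSPB1 (-0.17 to -0.03) had the narrowest ranges with DNAJC10 (-0.33 and -0.22). FKBP4, an HSP90 co-chaperone outside the name pattern, went from 5307 to 2972, a log2 ratio of -0.87 in the corner, where the surrounding spots had a median of 0.30, and its other probe was dim on both arrays. Of the 42 measured probes of the listed partners, 5 were at -0.5 or below and 4 at 0.5 or above. The higher ones included PPID (0.65, outside the corner) and HSBP1 (0.52, in the corner). The prefoldin subunits, which pass clients to CCT, had log2 ratios of 0.52 and -0.69 for the PFDN1 probes, -0.77 for PFDN6, -0.29 for PFDN2, -0.24 for VBP1, and -0.18 and -0.23 for the PFDN5 probes. PFDN4 was dim on the siRNA array, and its bound did not reach below 0.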
